A study of Sus scrofa with 48 samples.

Results

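The genes described here are 9 plasma membrane carriers of peptides and amino acids, followed in ileum, where the small intestine ends, and in hypothalamus of weaned piglets (Sus scrofa). They were chosen by name, as carriers known from absorbing intestinal cells, and all 9 were found among the 22924 genes of the table. By their known place in the enterocyte, 6 were taken as apical, facing the gut lumen (SLC15A1, SLC7A9, SLC3A1, SLC6A19, SLC1A1 and SLC36A1), and 3 as basolateral, facing the blood (SLC7A8, SLC7A7 and SLC3A2). The ileum groups were day 39 low growth, day 39 high growth, day 7 low growth and day 7 high growth, with 6 libraries each, and the hypothalamus groups were the same. The labels name growth class, tissue and day only: piglets were classed by average daily gain between day 0 and the day of sampling, and no genotype, breed, sex, litter, pen, batch or exact age is given. Libraries were made from polyA RNA, whose mean integrity number (RIN) was 7.8. Nothing beyond separate sample names says that replicates are separate animals, so the p-values measure the spread between these samples, which may be partly technical.

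Dietary protein reaches the enterocyte as small peptides and free amino acids. Peptides enter through a proton-coupled carrier at the brush border, and free amino acids through sodium- or proton-driven carriers and exchangers beside it. Carriers of the opposite membrane then pass amino acids to the blood. The basolateral light chains followed here are bound to the shared heavy chain SLC3A2 and act largely by exchanging one amino acid for another. Fasting and refeeding, weaning and the maturation of cells along the villus are known to change the amounts of these carriers.

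In RefSeq's table of the build Sscrofa11.1, counted from 1, the apical genes lie as follows. SLC15A1 (ENSSSCG00000009513) is at chromosome 11, 67652808 to 67690457, SLC7A9 (ENSSSCG00000022948) at chromosome 6, 42664795 to 42706113, and SLC3A1 (ENSSSCG00000008449) at chromosome 3, 96157387 to 96201057. SLC6A19 (ENSSSCG00000017120) is at chromosome 16, 79293940 to 79310922, SLC36A1 (ENSSSCG00000035442) on the same chromosome, 71540646 to 71589532, and SLC1A1 (ENSSSCG00000005222) at chromosome 1, 217366493 to 217441643. Of the basolateral genes, SLC7A8 (ENSSSCG00000002032) and SLC7A7 (ENSSSCG00000002041) are both on chromosome 7, at 75854700 to 75921931 and 76195774 to 76235406, and SLC3A2 (ENSSSCG00000022404) is at chromosome 2, 8892071 to 8919070. Counts are per whole gene, so isoforms were not told apart.

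Ileum libraries held 14.4 to 23.2 M estimated counts in all (M, mega), and those of hypothalamus 14.2 to 21.1 M. Each of the 14 enterocyte markers with a gene ID had reads in every ileum library, and villin (VIL1), the actin bundler of the brush border, lay between 469.8 and 1658 CPM there (CPM, counts per M counts of the library), against at most 0.298 CPM in hypothalamus. The ileum libraries that stood apart most were all of day 7. By its median rank correlation with the other ileum libraries over 15256 genes, high growth replicate 5 was at 0.869, high growth replicate 1 at 0.905 and low growth replicate 3 at 0.949, while the other 21 lay between 0.958 and 0.983. High growth replicate 1 held 388 CPM summed over 8 markers of B and plasma cells, against 1969 to 4069 CPM in the other ileum libraries, and 8337 CPM over 7 smooth muscle markers, against 1551 to 4164 CPM. High growth replicate 5 held 462 CPM over 9 macrophage markers, against 810 to 1789 CPM. Growth results are therefore given with and without high growth replicates 1 and 5 of day 7, and without low growth replicate 3 of day 7 where that moved a value clearly. In bulk tissue, fewer cells of a type and less RNA per cell cannot be told apart.

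All 9 carriers had reads in every ileum library, with no fewer than 192 estimated counts, so that none was near the limit of detection there. Over the 24 ileum libraries the apical carriers ran between 14.4 CPM, the lowest value of SLC36A1, and 531 CPM, the highest of SLC6A19. CPM is not per transcript length, so levels are compared within a gene and not between genes. Of the 9, 5 were higher in every ileum library than in any hypothalamus library. These were SLC15A1 (51.1 to 390.3 CPM in ileum, at most 0.685 CPM in hypothalamus), SLC7A9 (50.8 to 200.5 CPM, at most 1.13 CPM), SLC3A1 (19.8 to 124.8 CPM, at most 4.72 CPM), SLC6A19 (62.7 to 531 CPM, at most 0.136 CPM) and SLC7A7 (42.2 to 265 CPM, at most 18.2 CPM). SLC1A1, SLC36A1, SLC7A8 and SLC3A2, which are known from brain as well, overlapped between the tissues. The share of all genes whose ranges did not overlap between the tissues was not counted. All 9 were chosen as carriers of absorbing intestinal cells, so the 5 of 9 is a description and not a result about the carriers.

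**Figure D1:**
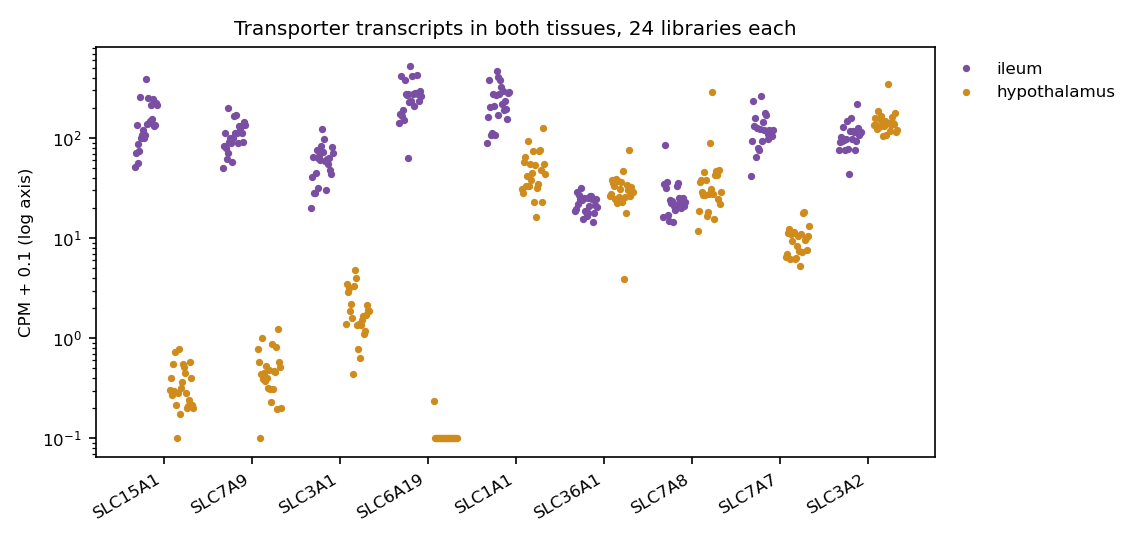
CPM plus 0.1 (log axis) of the 9 carriers in the 24 ileum and 24 hypothalamus libraries, 1 point per library. SLC15A1, SLC7A9, SLC3A1, SLC6A19 and SLC7A7 lay higher in every ileum library, whereas the other 4 overlapped between the tissues.

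SLC15A1 encodes the proton-coupled carrier that takes up dipeptides and tripeptides. In ileum on day 39 its median and highest levels were 183 and 390.3 CPM in low growth, with every library above 134.7 CPM, against 187 and 245 CPM in high growth, with 132 CPM at the lowest. On day 7 the lowest, median and highest were 51.1, 72.9 and 134.7 CPM in low growth, against 99.35, 108 and 259.6 CPM in high growth. On day 39 the growth classes overlapped, with low growth replicates 1 and 3 above every high growth library, on day 7 most low growth libraries lay below all high growth libraries, and within low growth no day 39 library came as low as the highest of day 7. Averaged over growth, SLC15A1 rose on day 39 by 0.96 ± 0.21 (SE) on the log2 scale (edgeR, adjusted p = 0.0266), with means of 200 ± 75.6 CPM on day 39 and 106 ± 54.5 CPM on day 7 (SD, n = 12 libraries each). It was the only carrier of the 9 that passed there, where 0.439% of 15256 tested genes did. In low growth alone the rise was 1.44 ± 0.29 (adjusted p = 0.0454), again 1 of 9 carriers against 0.131% of all genes, and 0.537% of all genes had ranges of day 39 and day 7 that did not overlap in low growth. In high growth the value was 0.48 ± 0.29 (adjusted p = 0.534), 0.79 without day 7 replicate 1 and 0.75 ± 0.29 without day 7 replicates 1 and 5 (adjusted p = 1.0), with 0 of 9 carriers called, against 0.0131% of all genes. Ranges of both days overlapped for all 9 carriers in high growth, where 0.472% of all genes had ranges that did not. The rises of both growth classes were not shown to differ, since the difference between them was 0.96 ± 0.41 (adjusted p = 0.987), and 0.67 ± 0.38 without day 7 high growth replicates 1 and 5.

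Both calls of SLC15A1 were lost without some single libraries, and with enterocyte markers as a covariate. The averaged rise lay between 0.83 and 1.12 when each library was left out, with the adjusted p then at most 0.0632, and the call held in 14 of 24 cases. It was lost without day 39 low growth replicate 1 or 3, day 39 high growth replicate 2, 5 or 6, day 7 low growth replicate 1, 2, 5 or 6, or day 7 high growth replicate 4. The rise within low growth kept its call in 6 of 24 cases, namely without day 39 low growth replicate 2, 4 or 5, day 7 low growth replicate 3, or day 7 high growth replicate 1 or 5, with values of 1.18 to 1.65. Summed over 14 markers, enterocyte transcripts were at 12216 to 24440 CPM in day 39 low growth, 8950 to 19578 CPM in day 39 high growth, 5653 to 14884 CPM in day 7 low growth and 8403 to 18403 CPM in day 7 high growth, and none was at 0. With the mean of these markers as a covariate the averaged rise was 0.40 ± 0.13 (adjusted p = 0.189, and 0.00162 to 0.189 over all alternatives) and that in low growth 0.52 ± 0.19 (adjusted p = 1.0, and 0.00111 to 1.0). Of these markers FABP6, the ileal bile acid binding protein, rose on day 39 by 1.18 ± 0.25 (adjusted p = 0.0235), the only call among the 14, and 7 had an unadjusted p under 0.05. Markers of T cells moved with day too: 6 of 6 lay above 0, and 6 had an unadjusted p under 0.05. Of these 3 were called higher, among them CD8A at 1.38 ± 0.15 (adjusted p = 2.56e-05). The list summed to 382 to 567.8 CPM in day 39 low growth, 386 to 604 CPM in day 39 high growth, 265 to 351 CPM in day 7 low growth and 184 to 379 CPM in day 7 high growth. Of 6 fibroblast markers, 6 lay below 0 between days, 4 with an unadjusted p under 0.05, and 0 were called, with sums of 2314 to 5763 CPM in day 39 low growth, 2985 to 6530 CPM in day 39 high growth, 4555 to 7188 CPM in day 7 low growth and 4159 to 16255 CPM in day 7 high growth. Of 9 macrophage markers 6 lay above 0 between days and 3 below, with a median of 0.046. An unadjusted p (edgeR) under 0.05 was found for 3 of them, 1 higher and 2 lower. The only call was CD163, which fell by 1.11 ± 0.23 (adjusted p = 0.0193). Macrophage sums were 1016 to 1322 CPM in day 39 low growth, 1129.7 to 1789 CPM in day 39 high growth, 810 to 1632 CPM in day 7 low growth and 462 to 1491 CPM in day 7 high growth. The part of T cells, fibroblasts and macrophages in the rise of SLC15A1 was not tested.

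**Figure D2:**
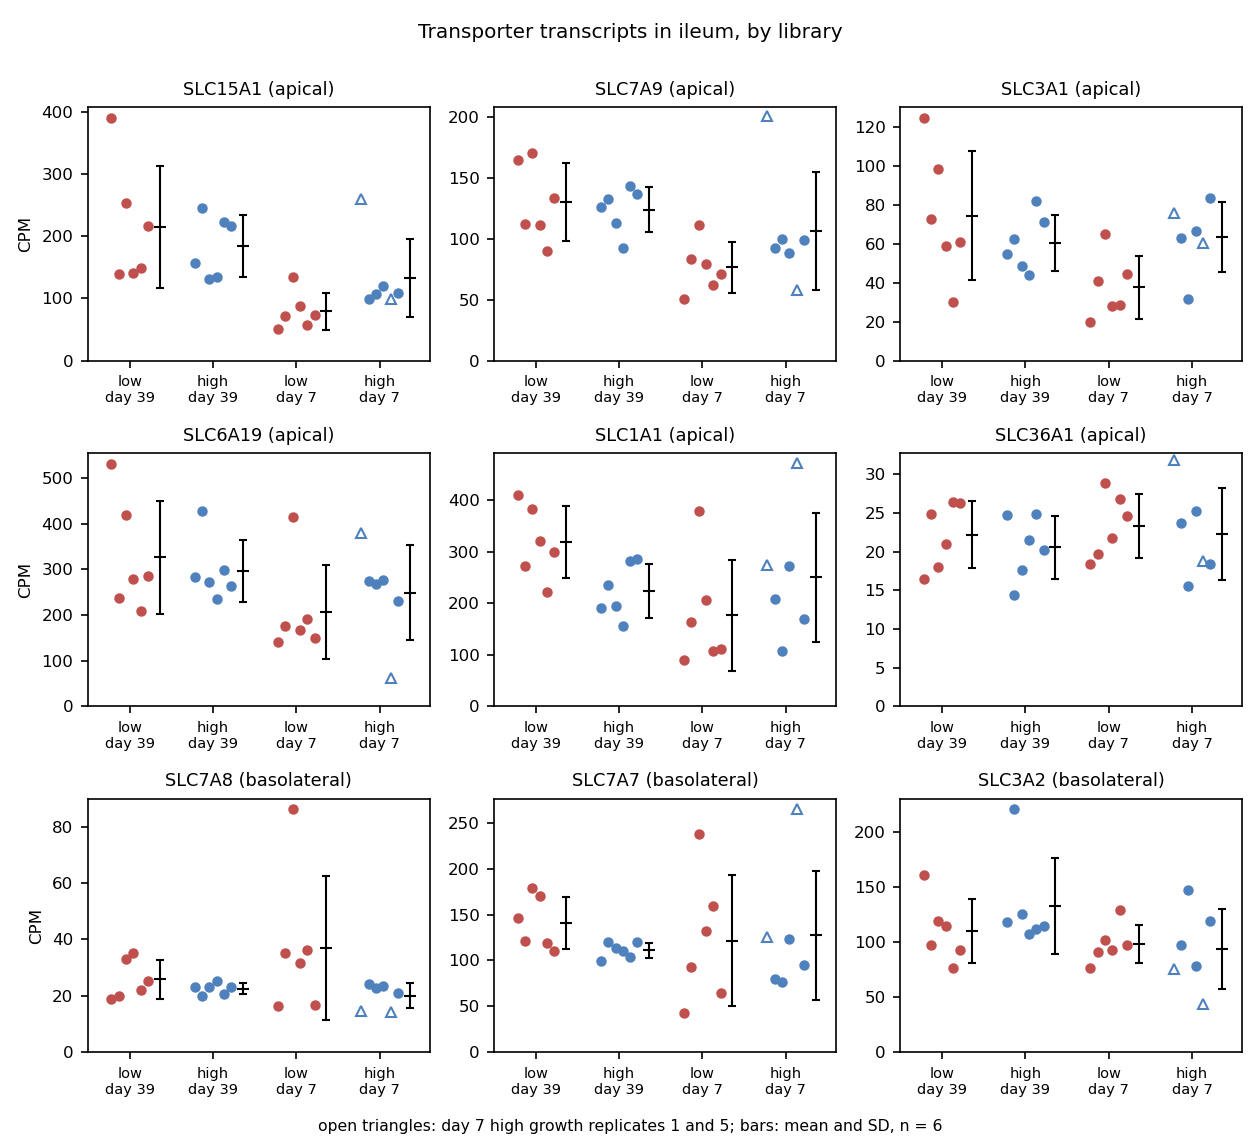
CPM of each carrier in the 24 ileum libraries, 1 point per library, by growth class and day, with the group mean and SD (n = 6) beside the points. Open triangles mark high growth replicates 1 and 5 of day 7. SLC15A1 of day 39 low growth lay wholly above that of day 7 low growth, and 1 library of day 7 low growth, at 86.1 CPM of SLC7A8, stood above all others.

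Between growth classes no carrier passed on either day in ileum. On day 39 edgeR called 0 of 9, against 0.0% of all genes, and 0 of 9 had an unadjusted p under 0.05, against 1.06% of all genes. On day 7 it called 0 of 9, also against 0.0% of all genes, while 4 of 9 had an unadjusted p under 0.05, against 5.65% of all genes. These 4 were SLC7A8 with a positive difference and SLC15A1, SLC3A1 and SLC7A9 with negative ones. Without high growth replicates 1 and 5 of day 7 the unadjusted p (edgeR) stayed under 0.05 for SLC7A8 (0.035) and SLC3A1 (0.047). For SLC15A1 and SLC7A9 it was then 0.12. In that setting 890 of 15587 genes had an unadjusted p under 0.05. DESeq2 and limma voom called 0 of 9 on both days. Ranges of low and high growth did not overlap for 0.164% of genes on day 39 and 0.138% on day 7, and overlapped for every carrier on both days. The day 7 comparison and the day comparisons share libraries, so their values for a gene are not independent of each other.

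SLC15A1 itself showed how far the day 7 growth values hang on single libraries. Its log2 difference between low and high growth was 0.22 ± 0.29 on day 39 (adjusted p = 0.999). On day 7 it was -0.74 ± 0.29 (adjusted p = 0.791), where all but 1 of the 6 low growth libraries lay under the median of high growth. Without high growth replicates 1 and 5 the day 7 value was -0.44 ± 0.28 (adjusted p = 0.725), and leaving out single libraries gave -0.95 without low growth replicate 3 and -0.43 without high growth replicate 1. High growth replicate 1 had 259.6 CPM, against 119.9 CPM in the next library of its group.

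SLC7A9 and SLC3A1 are the light and heavy chains of the apical exchanger for cystine and cationic amino acids, whose loss causes cystinuria in humans. The light chain SLC7A9 had a lowest, median and highest level of 90.3, 123 and 170 CPM in day 39 low growth, against 92.3, 129 and 143.5 CPM in day 39 high growth. In the day 7 libraries the same values were 50.8, 75.6 and 111.4 CPM in low growth, against 58.4, 95.8 and 200.5 CPM in high growth. Growth classes overlapped on both days, and the single high point of day 7 was again high growth replicate 1. Its difference between days, averaged over growth, was 0.49 ± 0.16 (adjusted p = 0.263). Without high growth replicates 1 and 5 of day 7 this value was 0.57 ± 0.13 and passed (adjusted p = 0.0357, and 0.0238 to 0.728 over all alternatives), which makes 2 of 9 carriers called in that setting, where 92 genes were called higher and 21 lower of 15587 tested. Leaving out day 7 high growth replicate 1 alone gave a call as well. The growth difference was 0.07 ± 0.23 on day 39, and on day 7 it was -0.48 ± 0.23 (adjusted p = 0.846) with all libraries -0.30 ± 0.19 without those 2, -0.20 without high growth replicate 1 alone and -0.61 without low growth replicate 3.

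The heavy chain SLC3A1 lay at 30.1, 66.9 and 125 CPM (lowest, median and highest) in day 39 low growth, against 43.85, 58.7 and 81.7 CPM in day 39 high growth. For day 7 the values were 19.8, 34.5 and 65.2 CPM in low growth, against 31.5, 64.8 and 83.3 CPM in high growth. Low growth thus covered the wider range on day 39 and mostly the lower range on day 7, with overlap on both days. Its growth difference was 0.30 ± 0.29 on day 39 (adjusted p = 0.999) and -0.75 ± 0.29 on day 7 (adjusted p = 0.791), and that of day 7 was -0.69 ± 0.33 without high growth replicates 1 and 5 and -0.97 without low growth replicate 3. The difference between these growth values was 1.05 ± 0.41 (adjusted p = 0.987). Between days SLC3A1 differed by 0.98 ± 0.29 in low growth (adjusted p = 0.384) and by -0.07 ± 0.29 in high growth (adjusted p = 0.912).

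Within a library, the log2 ratio of heavy to light chain was -0.91 ± 0.41 in day 39 low growth, -1.06 ± 0.16 in day 39 high growth, -1.08 ± 0.32 in day 7 low growth and -0.71 ± 0.68 in day 7 high growth (SD, n = 6 each). Only differences of this ratio between libraries can be read, since transcript lengths enter its level. The groups overlapped, and the widest spread, in day 7 high growth, ran between -1.67 in replicate 3 and 0.053 in replicate 5. Both chains therefore did not move in step in every library.

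SLC6A19, the sodium-driven carrier of neutral amino acids whose loss causes Hartnup disorder in humans, lay at 208, 282 and 531 CPM (lowest, median and highest) in day 39 low growth, against 234, 278 and 428 CPM in day 39 high growth. In day 7 ileum it lay at 141.04, 171 and 416 CPM in low growth, against 62.7, 272 and 379.7 CPM in high growth. Most libraries sat near their group median, and the extremes of day 7 were 2 of the libraries that stood apart, low growth replicate 3 at the top and high growth replicate 5 at the bottom. The growth difference was 0.14 ± 0.32 on day 39 and -0.27 ± 0.32 on day 7 (adjusted p = 0.999 and 0.96). On day 7 it was -0.34 ± 0.27 without high growth replicates 1 and 5, -0.59 without low growth replicate 3 and -0.11 without high growth replicate 1. Between days SLC6A19 differed by 0.46 ± 0.22 averaged over growth (adjusted p = 0.567).

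Collectrin (CLTRN), the partner of SLC6A19 in kidney, differed by 1.01 ± 0.35 between growth classes on day 39 (adjusted p = 0.999), at 4.27 to 20.02 CPM in low growth, against 4.19 to 5.60 CPM in high growth.

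SLC1A1 takes up glutamate and aspartate, the main fuels of the enterocyte. It was at 222, 310.4 and 411 CPM (lowest, median and highest) in day 39 low growth, against 156, 216 and 287 CPM in day 39 high growth. Day 7 gave 89.4, 137.8 and 379 CPM in low growth, against 107, 241 and 472 CPM in high growth. On day 39 all 6 low growth libraries lay above the high growth median and on day 7 5 of 6 lay below it, though the ranges overlapped both times. The differences were 0.51 ± 0.32 on day 39 (adjusted p = 0.999) and -0.50 ± 0.32 on day 7 (adjusted p = 0.866), and their difference was 1.01 ± 0.45 (adjusted p = 0.987). Without high growth replicates 1 and 5 the day 7 value was -0.09 ± 0.32, without replicate 5 alone, which held the highest SLC1A1 of the tissue, it was -0.21, and without low growth replicate 3 it was -0.87. Without both high growth libraries the difference of the growth values was 0.60 ± 0.43 (adjusted p = 1.0).

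SLC36A1, a proton-coupled carrier of small neutral amino acids such as glycine and proline, had the narrowest range of the 9 over the ileum libraries. Its level lay between 16.5 and 26.5 CPM in day 39 low growth, 14.4 and 24.9 CPM in day 39 high growth, 18.4 and 28.8 CPM in day 7 low growth and 15.6 and 31.9 CPM in day 7 high growth. All 4 groups covered much the same range. The growth difference was 0.11 ± 0.18 on day 39 and 0.07 ± 0.18 on day 7, and that between days was -0.10 ± 0.13 averaged over growth (adjusted p of 0.999, 0.984 and 0.749).

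SLC7A8 is the light chain of a basolateral exchanger that passes neutral amino acids to the blood. Its lowest, median and highest levels were 19.0, 23.75 and 35.2 CPM in day 39 low growth, against 19.9, 23.1 and 25.2 CPM in day 39 high growth. By day 7 group they were 16.3, 33.3 and 86.1 CPM in low growth, against 14.4, 21.9 and 24.04 CPM in high growth. Day 7 low growth split into 2 libraries near 16.5 CPM, 3 between 31.6 and 36.3 CPM, and replicate 3 at 86.1 CPM. Its growth difference of 0.88 ± 0.29 on day 7 had the lowest unadjusted p of the 9 and did not pass (adjusted p = 0.776, and 0.471 to 1.0 over all alternatives). The value was 0.45 without low growth replicate 3 and 0.71 ± 0.31 without high growth replicates 1 and 5, which held the 2 lowest levels of their group. On day 39 it was 0.20 ± 0.29 (adjusted p = 0.999), and the 2 growth values differed by -0.69 ± 0.40 (adjusted p = 0.987). In low growth replicate 3 the macrophage receptor CD163 was at 180 CPM, against 29.2 to 92.6 CPM in the rest of its group. CSF1R, another macrophage receptor, was at 174.6 CPM there, against 83.5 to 168 CPM. In the same library 4 endothelial markers summed to 303 CPM, against 127 to 205 CPM in the rest of its group. Its 14 enterocyte markers summed to 14884 CPM, against 5653 to 8940 CPM. Markers of crypts and proliferation summed to 2187 CPM, against 1309 to 1698 CPM. The part of any of these cell types in its SLC7A8 level was not tested.

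SLC7A7, the light chain of the basolateral exporter of cationic amino acids whose loss causes lysinuric protein intolerance in humans, had 110.1, 133.9 and 178.5 CPM in day 39 low growth (lowest, median and highest), against 99.2, 111.5 and 119.7 CPM in day 39 high growth. On day 7 it had 42.2, 112.5 and 237 CPM in low growth, against 76.9, 108.9 and 265 CPM in high growth. Libraries of day 39 lay close together in high growth, while those of day 7 were spread over a several-fold range in both classes. The growth difference was 0.35 ± 0.31 on day 39 (adjusted p = 0.999). On day 7 it was -0.07 ± 0.31 (adjusted p = 0.992) with all libraries, 0.38 ± 0.30 without high growth replicates 1 and 5, 0.29 without replicate 5 alone and -0.37 without low growth replicate 3. The direction on day 7 thus followed which of the outlying libraries was kept.

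SLC3A2 is the heavy chain that both SLC7A8 and SLC7A7 need, and it serves light chains outside the gut epithelium too. Its levels ran through 76.05, 106 and 161 CPM in day 39 low growth (lowest, median and highest), against 108, 116.03 and 221 CPM in day 39 high growth. The day 7 levels were 76.6, 95.0 and 129 CPM in low growth, against 43.8, 87.7 and 147.5 CPM in high growth. The classes overlapped on both days, and the high point of day 39 was high growth replicate 2. Differences between growth classes were -0.27 ± 0.24 on day 39 and 0.07 ± 0.24 on day 7 (adjusted p = 0.999 and 0.99), and the day 7 value was -0.16 ± 0.22 without high growth replicates 1 and 5. Between days SLC3A2 differed by 0.51 ± 0.24 in high growth (adjusted p = 0.532), the only carrier of the 9 with an unadjusted p under 0.05 there, against 9.24% of all genes. Without high growth replicates 1 and 5 of day 7 that value was 0.26 ± 0.22.

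**Figure D3:**
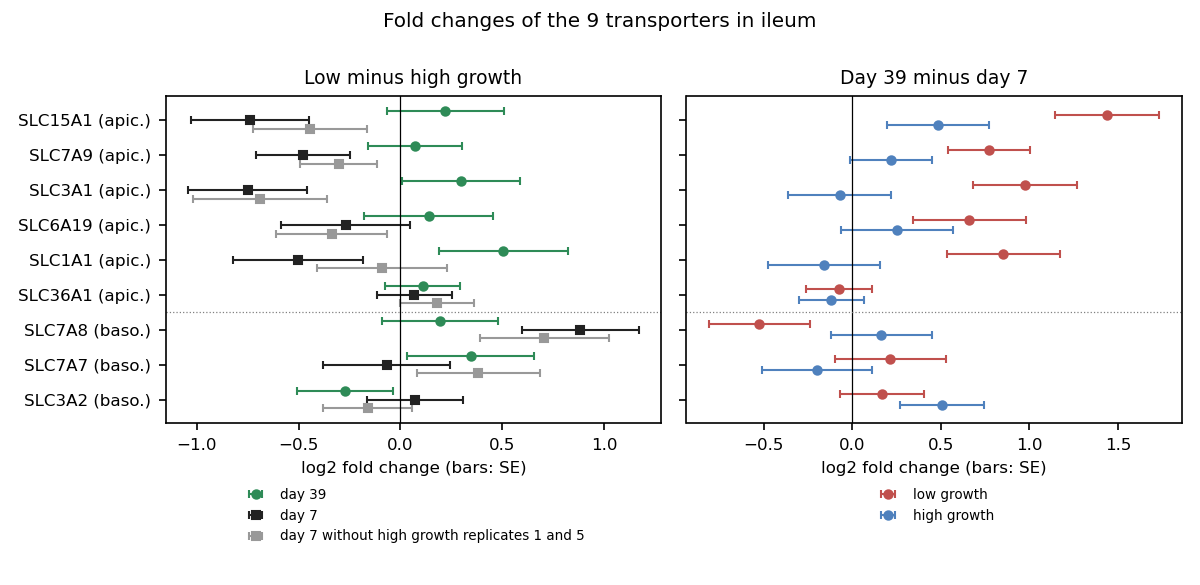
Log2 fold changes of the 9 carriers in ileum with their SE, for low minus high growth on each day (left) and for day 39 minus day 7 in each growth class (right). The 6 apical genes stand above the dotted line and the 3 basolateral genes below it. On day 7, 5 of 6 apical genes lay below 0 while SLC7A8 lay at 0.88, and grey squares give the day 7 values without high growth replicates 1 and 5.

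Apical and basolateral carriers can be set side by side by their counts and medians, which carry no test of their own. Of the apical genes 6 of 6 lay above 0 on day 39, with a median log2 difference of 0.18, and 5 of 6 lay below 0 on day 7, with a median of -0.49. With the enterocyte covariate, 4 of the 6 lay below 0 on day 39, at -0.14 for SLC15A1, -0.16 for SLC7A9, -0.04 for SLC3A1 and -0.15 for SLC6A19. The basolateral medians were 0.20 on day 39 and 0.07 on day 7. Over all genes tested the medians were -0.0039 on day 39 and -0.052 on day 7, with 49.3% and 41.9% of genes above 0. Without high growth replicates 1 and 5 of day 7 the apical median of that day was -0.32, with 5 of 6 below 0, and the basolateral median 0.38. For the difference of the growth values between days, 6 of 6 apical genes lay above 0 (median 0.75, against 0.046 over all genes). There edgeR called 0 of 9 carriers against 0.0% of all genes, and 3 of 9 had an unadjusted p under 0.05, against 3.01%. Without high growth replicates 1 and 5 of day 7, 5 of 6 apical genes lay above 0 for this difference, with a median of 0.55. The unadjusted p of those 3 carriers was then 0.034 for SLC3A1, 0.085 for SLC15A1 and 0.17 for SLC1A1 (edgeR). In that setting 300 of 15587 genes had an unadjusted p under 0.05. With all libraries, 13 of 14 enterocyte markers also lay above 0 for this difference, with a median of 0.62. With the enterocyte covariate it was 0.24 for SLC15A1, 0.04 for SLC7A9 and 0.47 for SLC3A1. For SLC6A19, SLC1A1 and SLC36A1 it was then -0.07, 0.67 and -0.04. Averaged over growth, 3 of 9 carriers had an unadjusted p under 0.05 between days, against 8.85% of all genes, and in low growth 5 of 9, against 4.51%. These 5 in low growth were all apical, with a median over the 6 apical genes of 0.81 in low growth and 0.07 in high growth. Without high growth replicates 1 and 5 of day 7 these medians were 0.80 in low growth and 0.20 in high growth, where 4 of 6 lay above 0.

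The sums over a library gave the same comparison in CPM, with the more abundant genes weighing more. The summed apical carriers were at 1087 ± 341 CPM in day 39 low growth, 911 ± 171 CPM in day 39 high growth, 600.1 ± 273 CPM in day 7 low growth and 824 ± 208 CPM in day 7 high growth (SD, n = 6 each). Their basolateral counterparts were at 277 ± 54.0, 266 ± 47.2, 257 ± 105 and 241 ± 43.2 CPM in the same groups. The basolateral sum differed by less than its spread between any 2 groups. The log2 ratio of apical to basolateral sum was 1.94 ± 0.29 in day 39 low growth, 1.77 ± 0.25 in day 39 high growth, 1.23 ± 0.35 in day 7 low growth and 1.76 ± 0.46 in day 7 high growth. In low growth the ratio of every day 39 library, 1.55 or more, was above that of every day 7 library, 1.45 or less. Day 7 low growth also overlapped day 7 high growth only between 1.26 and 1.45, where high growth replicates 3 and 5 lay, and high growth replicate 1 had the highest ratio of the tissue, 2.504. The 4 high growth libraries left without replicates 1 and 5 lay between 1.35 and 1.93.

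**Figure D4:**
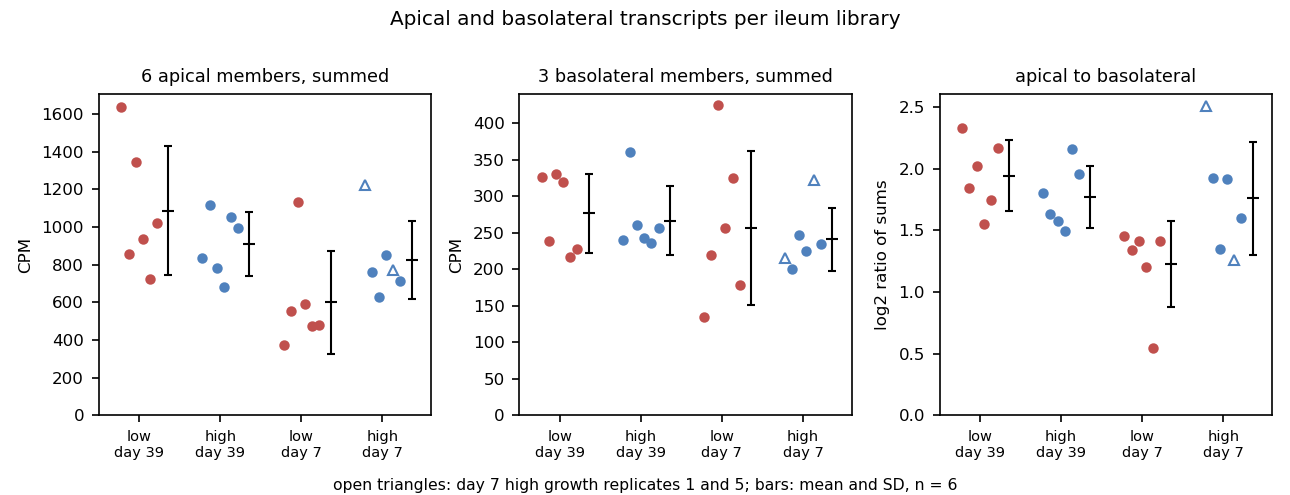
Summed CPM of the 6 apical carriers (left), of the 3 basolateral carriers (middle) and the log2 ratio of both sums (right) in each ileum library, with mean and SD (n = 6). Open triangles mark high growth replicates 1 and 5 of day 7. Day 7 low growth had the lowest mean apical sum, 600.1 CPM, at a basolateral sum like that of the other groups.

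Among the basolateral genes the log2 ratio of SLC7A8 to SLC7A7 was -2.47 ± 0.29 in day 39 low growth, -2.30 ± 0.18 in day 39 high growth, -1.73 ± 0.35 in day 7 low growth and -2.55 ± 0.95 in day 7 high growth (SD, n = 6 each). On day 7 it ran between -2.13 and -1.37 in low growth and between -4.20 and -1.73 in high growth. The lowest ratios, -4.20 and -3.09, belonged to high growth replicates 5 and 1. The other 4 high growth libraries lay between -2.38 and -1.73, which overlapped low growth. In low growth the ratio of day 39 ran between -2.94 and -2.12, so that it met the day 7 range only at its edge. The ratios of SLC3A2 to SLC7A8 and to SLC7A7 overlapped between all groups, with means of 1.63 to 2.52 and of -0.41 to 0.21.

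Most enterocyte markers lay on the same side of 0 as most apical carriers. On day 39, 11 of 14 enterocyte markers lay above 0 for low against high growth, with a median of 0.29, and on day 7 10 of 14 lay below 0, with a median of -0.35 (-0.12 without high growth replicates 1 and 5). For day 39 against day 7 in low growth 13 of 14 lay above 0, with a median of 0.63. With their mean as a covariate the day 7 growth difference was -0.38 ± 0.16 for SLC15A1, -0.51 ± 0.20 for SLC3A1, -0.21 ± 0.16 for SLC7A9 and 0.90 ± 0.28 for SLC7A8, with an adjusted p of 0.998 for each. SLC7A8 was thus as far from 0 with that covariate as without it, while the 3 apical values came closer to 0. In day 39 minus day 7 within low growth the covariate left -0.0061 for SLC6A19, 0.13 for SLC7A9, 0.16 for SLC3A1 and 0.29 for SLC1A1. Markers of crypts and proliferation summed to 1236 to 1484 CPM in day 39 low growth, 1062 to 1455 CPM in day 39 high growth, 1309 to 2187 CPM in day 7 low growth and 1207 to 2883 CPM in day 7 high growth, and their part was not tested. All 7 smooth muscle markers lay below 0 for low against high growth on day 7, with 0 called and sums of 2030 to 3109 CPM in low growth, against 1551 to 8337 CPM in high growth, and their part was not tested either.

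**Figure D5:**
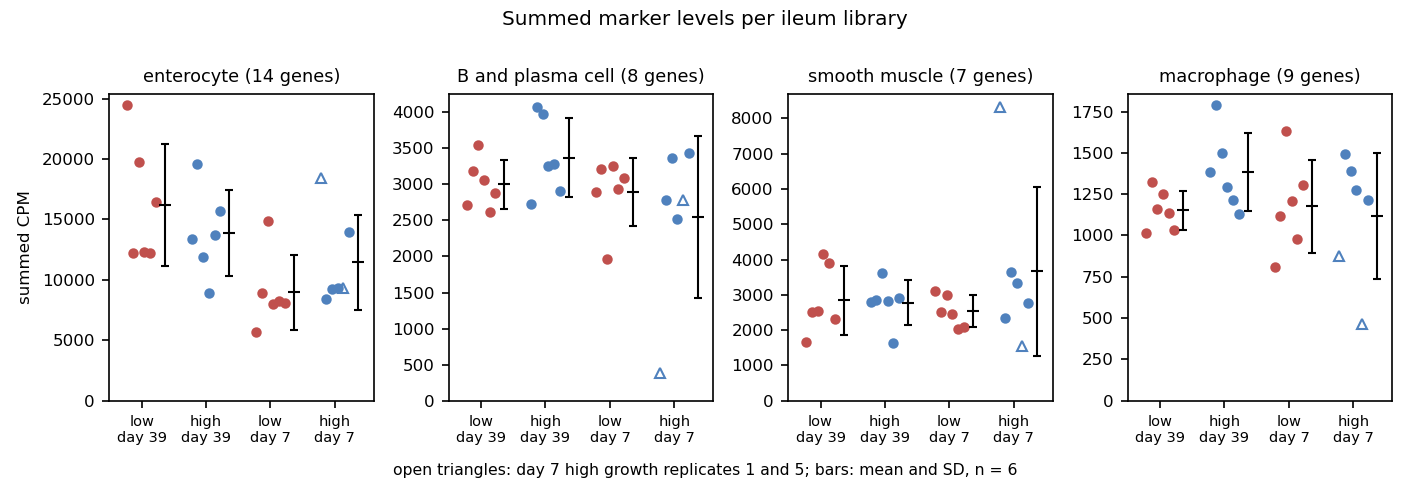
Summed CPM of the markers of enterocytes, B and plasma cells, smooth muscle and macrophages in each ileum library, with mean and SD (n = 6). Open triangles mark high growth replicates 1 and 5 of day 7, at 388 CPM for B and plasma cells in replicate 1 and 462 CPM for macrophages in replicate 5. The lowest enterocyte sum, 5653 CPM, and 1 of the higher ones of day 7, 14884 CPM, were both of day 7 low growth.

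Across the 24 ileum libraries, which differ in growth class, day and cell makeup, several apical carriers had like patterns. Among SLC15A1, SLC7A9, SLC3A1 and SLC6A19, Pearson's r of log2 CPM ran between 0.55 and 0.92. It was 0.92 for SLC7A9 and SLC15A1, 0.83 for SLC7A9 and SLC6A19, and 0.76 for SLC3A1 and SLC15A1. SLC7A7 had an r of 0.76 with SLC1A1, 0.42 with SLC7A8, which lies near it on the chromosome, and -0.11 with its heavy chain SLC3A2. Without the 2 libraries farthest from the median these values were 0.64, 0.64 and 0.25. SLC7A8 had an r of -0.11 with SLC15A1 and of 0.03 with SLC7A9, and SLC36A1 between -0.45 and 0.22 with the other 8. Among 11359 other genes, the closest pattern to SLC15A1 was that of MFSD2A, a carrier of lysophospholipids (r = 0.90), followed by VIL1 (r = 0.89) and GZMH, a granzyme of cytotoxic lymphocytes (r = 0.88). MFSD2A was also the closest to SLC7A9 (r = 0.92). SLC3A1 was closest to SAR1B, which acts in chylomicron export, and SLC28A2, a nucleoside carrier (r = 0.87 for both).

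The closest gene to SLC6A19 was PLEKHG6 (r = 0.95), and those to SLC1A1 were SLC35G1, ENPEP, a brush border peptidase, and BCO2, which cleaves carotenoids (r of 0.87, 0.86 and 0.86). SLC36A1 was closest to F2RL2 (r = 0.92), SLC7A7 to TMEM50B (r = 0.84) and SLC3A2 to EEFSEC, the elongation factor for selenocysteine (r = 0.92). SLC7A8 had the weakest best match, VAT1 (r = 0.78), which was 0.50 without the 2 libraries farthest from its median, followed by ZBTB46, a factor of dendritic cells (r = 0.74), and ABCG1, a cholesterol exporter of macrophages and other cells (r = 0.74). For the best matches of the other 8 carriers that value was between 0.77 and 0.91. These values describe likeness over libraries that share their tissue and are not tests.

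Of 34 further carriers of amino acids and peptides 30 could be tested in ileum, and edgeR called 0 of them in any of the 6 ileum comparisons. Their median growth difference was 0.09 on day 39 and 0.11 on day 7, with 18 and 19 of 30 above 0. The day 39 comparison had 1 with an unadjusted p under 0.05, the taurine carrier SLC6A6 at 0.64 ± 0.28 (adjusted p = 0.999), with a mean of 75.2 ± 13.4 CPM in low growth, against 48.3 ± 8.17 CPM in high growth (SD, n = 6 each). There were 2 on day 7, both carriers of neutral amino acids, SLC38A1 at 0.60 ± 0.26 and SLC1A4 at 0.70 ± 0.33 (adjusted p = 0.846 for both). SLC1A4 was at 5.88 CPM in high growth replicate 1, against 34.4 CPM or more in the rest of that group. Next by p on day 7 came SLC36A4, a relative of SLC36A1, at -0.48 ± 0.26, SLC7A5, the LAT1 light chain that pairs with SLC3A2, at 0.46 ± 0.34, the glutamine carrier SLC1A5 at 0.28 ± 0.21 and the cationic amino acid carrier SLC7A1 at 0.27 ± 0.22. Between days 4 had an unadjusted p under 0.05 averaged over growth, 2 in low growth and 2 in high growth. Among them SLC6A14, a broad carrier of neutral and cationic amino acids, had the lowest p averaged over growth, at -0.84 ± 0.22 (adjusted p = 0.111), with 1.62 to 4.01 CPM on day 39 and 1.89 to 10.8 CPM on day 7. SLC15A3, a proton-coupled peptide carrier known from lysosomes, differed by -0.41 ± 0.24 between growth classes on day 39 (adjusted p = 0.999).

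A further list held partners of the apical carriers, drivers of uptake and their regulators. It had 14 symbols, of which SLC9A3R1 and NHERF1 name the same gene. Tested were 12, and 0 of them were called in any of the 6 ileum comparisons. Between growth classes 11 of 12 lay above 0 on day 39 (median 0.17), and 8 of 12 lay below 0 on day 7 (median -0.25). On day 7, 3 of 12 had an unadjusted p under 0.05, among them SP1, a general transcription factor, at 0.60 ± 0.24 (adjusted p = 0.801) and ATP1B1, a subunit of the sodium pump that keeps up the gradient for uptake, at -0.54 ± 0.25 (adjusted p = 0.846). PDZK1, which anchors brush border carriers, was at -0.37 ± 0.25 on day 7. Between days 1 of 12 had an unadjusted p under 0.05 averaged over growth, 5 in low growth and 0 in high growth. The 5 in low growth lay all above 0, among them NHERF1, another anchor, at 0.63 ± 0.27 (adjusted p = 0.925) and ATP1B1 at 0.51 ± 0.25 (adjusted p = 1.0). The known regulators of the intestinal epithelium CDX2 and HNF4A had an unadjusted p above 0.05 in every ileum comparison.

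Genes of the amino acid response, which cells induce when amino acids run short, gave 0 calls among the 10 tested in any ileum comparison. Their median growth difference was 0.03 on day 39 and 0.23 on day 7 (0.046 without high growth replicates 1 and 5), and none had an unadjusted p under 0.05 on either day. Between days CHAC1, which degrades glutathione, differed by 1.23 ± 0.51 in high growth (adjusted p = 0.52), TRIB3, a feedback factor of the response, by 0.64 ± 0.29 in low growth (adjusted p = 1.0) and ATF3, a stress transcription factor, by -0.37 ± 0.16 averaged over growth (adjusted p = 0.487).

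In hypothalamus 6 of the 9 carriers could be tested, and SLC15A1, SLC7A9 and SLC6A19 were too low, at no more than 0.685, 1.13 and 0.136 CPM in any library. SLC6A19 had reads in 1 of 24 hypothalamus libraries, replicate 1 of day 7 low growth. Against 0.0% of all genes on both days, edgeR called 0 of 6 between growth classes on day 39 and 0 of 6 on day 7. Of the 6, 1 had an unadjusted p under 0.05 on day 39, against 5.45% of all genes, and 0 did on day 7, against 7.67%. DESeq2 and voom also called 0 of 6 on both days. The 1 carrier was SLC7A8, at 15.3, 36.7 and 288 CPM (lowest, median and highest) in low growth, against 21.6, 35.8 and 47.5 CPM in high growth. The medians were alike, and low growth replicates 3 and 1, at 288 and 89.4 CPM, lay above all other hypothalamus libraries. The same libraries had the highest sums of 6 fibroblast markers in the tissue, 2082 CPM in replicate 3 and 3070 CPM in replicate 1. The other 4 of low growth on day 39 had 266 to 522 CPM, and high growth on that day 286 to 1746 CPM. The next highest sums were those of high growth replicate 2 on each day, 1811 CPM on day 7 and 1746 CPM on day 39. SLC7A8 was at 26.7 CPM in the day 7 library, slightly under its group median. In the day 39 library it was at 42.4 CPM, above its group median of 35.8 CPM. The part of fibroblasts was not tested. The SLC7A8 difference of 1.22 ± 0.52 on day 39 (adjusted p = 0.841) was 0.22 without low growth replicate 3, the hypothalamus library least like the others, at a median rank correlation of 0.848. That library also had the highest SLC3A2, 349.7 CPM, and the lowest SLC36A1, 3.77 CPM, of the tissue. The other carriers lay between -0.67 ± 0.38 for SLC1A1 and 0.21 ± 0.22 for SLC3A2 on day 39 and between -0.39 ± 0.38 for SLC1A1 and 0.05 ± 0.22 for SLC3A2 on day 7.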

How the data were processed

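RNA-seq of 24 ileum and 24 hypothalamus libraries was used, 6 per group, with groups and days taken from the labels. Trim Galore, kallisto, DESeq2 and the build Sscrofa11.1 are named, per the submitters' processing notes. Their versions and order and the annotation release were not given in the sources used here. Values taken were estimated counts by gene as deposited, of which 53% were not whole, as sharing of reads between transcripts gives, so reads of near-identical genes can be split. Their second table, of normalized values, was not used. Symbols came from a RefSeq table of the same build, which named 14894 of 22924 gene IDs.

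Counts were rounded, filtered by edgeR's filterByExpr (minimum count 10, minimum total 15), scaled by TMM and tested over all genes of a tissue in 1 model of 24 libraries, 15256 genes in ileum and 15865 in hypothalamus. Tests were two-sided and quasi-likelihood (edgeR 4.0.16, R 4.3.3), with p-values adjusted by Benjamini and Hochberg's method and called under 0.05. Ileum had a common biological coefficient of variation of 0.349 and hypothalamus of 0.435. CPM uses the scaled library size. Likeness used log2 CPM with a prior count of 2.

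Alternatives were DESeq2 1.42.0, voom of limma 3.58.1, DESeq2's size factors, unscaled totals, no filter, libraries of 1 day only, leaving out each library or both day 7 high growth replicates 1 and 5, and the mean of the enterocyte markers as a covariate. The members and lists were chosen with earlier results of these data known. The rule for named genes was all 9 members in every comparison, up to 6 genes of lowest p per further list and comparison, and the 3 most alike genes per member. Marker genes, libraries and ratios outside it are named beside the results they touch. Some genes this rule takes are not reported here.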

Additional observations from a re-analysis of the deposited data

Results flagged for a closer look

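In each group of 6 libraries the gap of the highest or lowest value to its neighbour was set against the whole range, and a share above 0.625 (Dixon's critical value) singled the library out. Of 89 groups of carrier levels and ratios 16 were singled out. The usual rate of about 1 in 20 holds for independent, normally distributed groups. These groups share genes and libraries, so no excess over that rate is read. The ileum libraries concerned were few. Day 7 high growth replicate 1 stood out with 259.6 CPM of SLC15A1 and 200.5 CPM of SLC7A9, and day 7 high growth replicate 5 with 264.8 CPM of SLC7A7. Day 7 low growth replicate 3 stood out with 86.08 CPM of SLC7A8 and 415.6 CPM of SLC6A19. Day 7 low growth replicate 5 had a log2 ratio of apical to basolateral sum of 0.5437, next to 1.20. Day 39 high growth replicate 2 stood out with 428.3 CPM of SLC6A19, 221.0 CPM of SLC3A2, and log2 ratios of SLC3A2 of 0.8853 to SLC7A7 and 3.473 to SLC7A8.

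In hypothalamus, day 39 low growth replicate 3 stood out with 287.9 CPM of SLC7A8, 349.7 CPM of SLC3A2 and 0.778 CPM of SLC7A9. Day 39 high growth replicate 2 had 75.94 CPM of SLC36A1, next to 32.5 CPM. At levels near 0, day 7 high growth replicate 4 had 0.6846 CPM of SLC15A1 and day 7 low growth replicate 1 had 0.1355 CPM of SLC6A19. The rest of the latter group had no SLC6A19 reads, which fixed its share at 1.0.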

How the results depend on the processing

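Of 2052 values of 66 carrier results under alternatives, 1937 kept their direction and their side of the threshold, 32 lost a call, 2 gained one and 81 changed direction, in 28 results, none with a call. The size of a growth difference in ileum is limited by the spread of 6 libraries per group, so values within about 1 SE of 0 have no settled direction. A distance of 1 SE is no bound, since values farther from 0 changed direction too. The largest of these was SLC6A19 between days in low growth, 0.66 ± 0.32, which was -0.0061 with the enterocyte covariate. No paired analysis was possible because the labels carry no replicate numbers that groups share. The cause of the changes below was not tested.

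The count of carriers called between days was 2 without day 7 high growth replicates 1 and 5, 0 with the enterocyte covariate, and 0 to 2 when each library was left out. In low growth it was 0 with unscaled totals, without a filter and with the covariate, and 0 to 1 when each library was left out. Over all genes the averaged day comparison called 67 (DESeq2 194, voom 63, 92 higher and 21 lower without day 7 high growth replicates 1 and 5, 45 to 101 leaving out each library). The low growth day comparison called 20 (DESeq2 71, 53 without those replicates, 12 with unscaled totals or without a filter, 4 with the covariate, 1 to 37 leaving out each library), and that of high growth 2 (DESeq2 46, voom 4, 11 with the covariate, 1 to 6 leaving out each library). Between growth classes DESeq2 called 2 genes on day 39, 7 on day 7 and 2 for their difference in ileum, and edgeR 0.

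Direction changed with unscaled totals for SLC7A7 growth on day 7 (0.025), the SLC36A1 difference of growth values (-0.0050), SLC7A7 between days (-0.0078, and -0.0058 without a filter) and SLC3A1 growth in day 7 hypothalamus (0.040, and 0.33 in voom). Without day 7 high growth replicates 1 and 5 it changed for growth on day 7 in SLC7A7 (0.38) and SLC3A2 (-0.16), for the difference of growth values in SLC36A1 (-0.061) and SLC7A7 (-0.029), and between days in high growth in SLC7A8 (-0.031), SLC1A1 (0.24) and SLC7A7 (0.23). With the covariate it changed for growth on day 7 in SLC7A7 (0.0074), on day 39 in SLC15A1 (-0.14), SLC7A9 (-0.16), SLC3A1 (-0.038) and SLC6A19 (-0.15), and for their difference in SLC6A19 (-0.072) and SLC36A1 (-0.037). Between days it then changed in SLC3A1 (-0.074), SLC1A1 (-0.046) and SLC7A7 (-0.25), and in low growth in SLC6A19 (-0.0061), SLC7A7 (-0.16) and SLC3A2 (-0.096).

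Leaving out each library in turn, values that crossed 0 had these ranges. For ileum growth on day 7 they were -0.0088 to 0.20 in SLC36A1, -0.37 to 0.29 in SLC7A7 and -0.065 to 0.26 in SLC3A2. On day 39 they were -0.037 to 0.32 in SLC15A1, -0.021 to 0.16 in SLC7A9 and -0.054 to 0.27 in SLC6A19, and for the difference -0.088 to 0.12 in SLC36A1. Between days they were -0.26 to 0.039 in SLC7A8 and -0.085 to 0.18 in SLC7A7, and in high growth -0.21 to 0.020 in SLC3A1, -0.32 to 0.12 in SLC1A1, -0.20 to 0.013 in SLC36A1 and -0.31 to 0.15 in SLC7A7. In hypothalamus on day 7 they were -0.24 to 0.071 in SLC7A8, -0.28 to 0.22 in SLC3A1, -0.15 to 0.0055 in SLC36A1, -0.087 to 0.12 in SLC7A7 and -0.037 to 0.096 in SLC3A2, and on day 39 -0.15 to 0.30 in SLC3A2.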
